A study of Mus musculus with 12 samples.

Results

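The comparison set tumors of mice given lenvatinib alone against tumors of mice given vehicle. Its members were taken by the treatment label: 3 lenvatinib and 3 vehicle tumors, 6 of the 12 in the series. All were subcutaneous xenografts of Hep3B, 1 human hepatocellular carcinoma cell line, grown in female BALB/c nu/nu mice, which were about 8 weeks old when the cells were injected. Nude mice lack mature T cells, so the host response is a partial one. Treatment began at a mean tumor volume of about 500 mm3. Lenvatinib was given at 10 mg/kg and vehicle in the same way, by mouth once a day, and each tumor was taken 8 hours after dose 4. Each tumor came from its own mouse. The other 6 tumors, 3 given H3B-6527 (300 mg/kg) together with lenvatinib (10 mg/kg) and 3 given H3B-6527 (300 mg/kg) alone, are used below only beside the genes described here. H3B-6527 is an inhibitor selective for the receptor FGFR4.

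Lenvatinib is an oral kinase inhibitor of the VEGF receptors, the FGF receptors, PDGFRA, KIT and RET. VEGF receptors act on endothelial cells, and blocking them reduces the growth and perfusion of tumor vessels. In cells short of oxygen, hypoxia-inducible factors (HIFs) switch on genes of glycolysis, iron uptake and vessel growth, VEGFA among them. In hepatocyte-like cells, FGF19 signals through FGFR4 and its co-receptor KLB to the MAP kinase pathway and represses bile acid synthesis.

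Library totals ran from 31.3 to 37.1 M (mega) counts in lenvatinib tumors and from 34.4 to 36.9 M in vehicle tumors. The table lists human gene symbols, although the samples are labelled as mouse. Tumor cell markers were abundant in both groups: albumin (ALB) averaged 40610 ± 5733 CPM in lenvatinib tumors and 35396 ± 1232 CPM in vehicle tumors (SD, n = 3 each). CPM is the count per M of a library's total after scaling with TMM factors. Host cell markers looked up by human symbol were sparse. Of 16 endothelial markers in the table, 13 were under 1 CPM in the 6 tumors, and ERG and PLVAP had no count. Their summed level was 10.0 to 14.1 CPM in lenvatinib tumors and 8.38 to 11.5 CPM in vehicle tumors. SOX18 alone averaged 5.80 CPM over the 6 tumors. Mouse vessels, the tissue on which VEGF receptor inhibition acts most directly, were therefore not analysed here. In bulk tumor RNA, fewer cells of a type and less RNA per cell cannot be told apart. In a principal component analysis of the 6 tumors, component 1 (34.8% of the variance) placed lenvatinib tumors at 25.5, 10.8 and 15.3 and vehicle tumors at −19.7, −4.3 and −27.7. Component 2 (20.2%) did not separate the groups.

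At an adjusted p under 0.05, 189 genes were called between lenvatinib and vehicle tumors, most with changes under 2-fold. The count depends on the threshold and the method, so it does not measure how many genes lenvatinib changed. Among the called genes were VEGFA and 3 other genes of the hypoxia list, which rose, and 7 genes of secreted or characteristic hepatocyte proteins, which also rose. The receptor FGFR1, the WNT target LGR5 and the YAP targets CTGF and AMOTL2 fell. Of 15246 genes tested, 101 rose (0.662%) and 88 fell (0.577%) at an adjusted p under 0.05 (edgeR quasi-likelihood test, Benjamini-Hochberg), 189 in all (1.24%). Only 13 of the 189 differed 2-fold or more on the fitted scale, 9 upward and 4 downward, and the median size of change was 1.43-fold. The smallest adjusted p was 0.0263. Without adjustment, 1479 genes were higher (9.7%) and 1308 lower (8.58%) at p under 0.05. The groups did not overlap for 1830 genes higher in lenvatinib tumors (12%) and 1700 lower (11.2%).

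The number of calls depended on single tumors. It was 0 without vehicle tumor 3, 0 without lenvatinib tumor 1 and 2 without vehicle tumor 1, against 346 without vehicle tumor 2, 235 without lenvatinib tumor 2 and 419 without lenvatinib tumor 3. Unadjusted p was under 0.05 for 1706 genes without vehicle tumor 3 and 2018 without lenvatinib tumor 1, and all 189 genes were among those that passed this looser threshold in each of the 6 refits. The 189 were chosen on these same tumors, so that result is largely set by the choice and is no support for them. With 0 calls in 2 of the refits, every gene said below to have risen or fallen misses the adjusted threshold in at least 2 of them. Scaling by library totals in place of TMM factors gave 122 higher and 259 lower genes, with the median of all genes at −0.04 in place of 0.00 on the log2 scale. DESeq2 gave 480 higher and 390 lower.

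**Figure D1:**
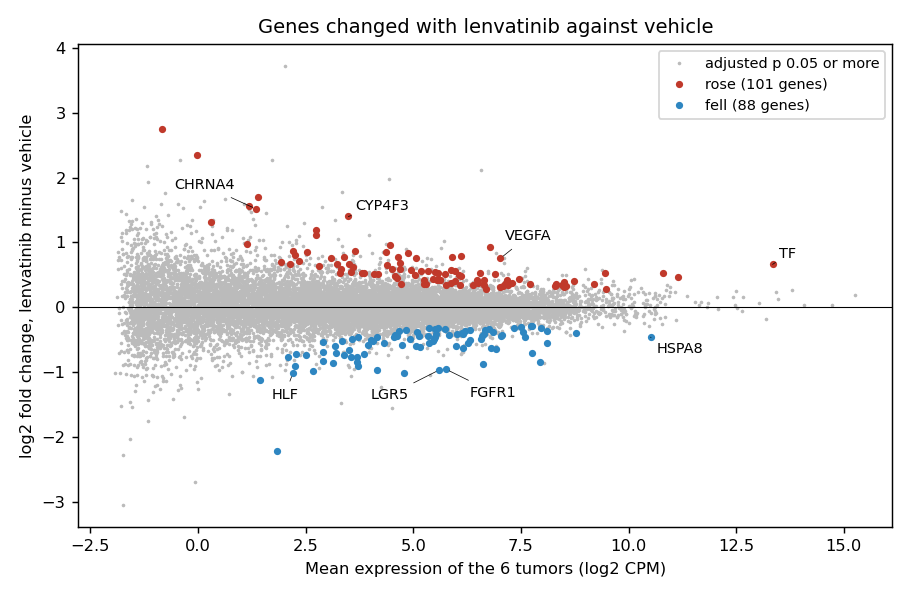
Each point is 1 of the 15246 genes tested, with its mean expression over the 6 tumors (log2 CPM) on the x axis and its log2 fold change, lenvatinib minus vehicle, on the y axis. The 101 genes that rose are red and the 88 that fell are blue; most lie within 1 log2 unit of 0, and genes with larger differences at low expression are mostly gray.

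Of 43 genes of the HIF response outside glycolysis, all tested, 4 rose with lenvatinib (P4HA1, VEGFA, CITED2 and PNRC1) and none fell. Their median log2 fold change was 0.48, against 0.00 over all genes tested, and 38 of 43 were positive, against 50.3% of all genes. Unadjusted, 22 of 43 were higher and 2 were lower at p under 0.05. This list and the others were chosen with earlier results of these data known, so their counts and medians are a description.

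VEGFA, the vascular endothelial growth factor that binds the receptors lenvatinib blocks, stood at 128, 160 and 182 CPM in lenvatinib tumors, against 87.6, 107 and 84.2 CPM in vehicle tumors. No lenvatinib tumor lay within the vehicle range, and vehicle tumor 2 was the highest of its group. The log2 fold change was 0.75 ± 0.14 (SE, n = 3 per group, edgeR adjusted p = 0.046). With library totals the log2 fold change was 0.71 and the adjusted p 0.051, and over all alternatives the adjusted p ranged from 1.09e-06 to 0.201.

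CITED2, a HIF-induced protein that competes with HIF for its coactivators, had 29.8, 24.3 and 30.0 CPM in lenvatinib tumors and 12.1, 17.7 and 13.1 CPM in vehicle tumors. Every lenvatinib tumor lay above every vehicle tumor, and the log2 fold change was 0.96 ± 0.14 (adjusted p = 0.0288). P4HA1, a collagen prolyl hydroxylase subunit, had 33.9, 39.5 and 47.6 CPM in lenvatinib tumors and 22.4, 27.3 and 21.3 CPM in vehicle tumors. It rose by 0.76 ± 0.13 on the log2 scale (adjusted p = 0.0405). PNRC1, a nuclear receptor coregulator, rose by 0.35 ± 0.07 (adjusted p = 0.0427), with 83.9 to 96.2 CPM in lenvatinib tumors and 70.0 to 72.3 CPM in vehicle tumors.

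The members with the largest differences did not pass the test. NDRG1, a stress-responsive gene widely used as a hypoxia marker, had 130, 131 and 189 CPM in lenvatinib tumors and 20.8, 66.4 and 16.2 CPM in vehicle tumors. The groups did not overlap, but vehicle tumor 2 stood well above the other two vehicle tumors. Its log2 fold change was 2.12 ± 0.64 (adjusted p = 0.196). Without vehicle tumor 2 it was 3.02 (adjusted p = 0.0116), and over all alternatives the adjusted p ran from 0.0116 to 0.448. CA9, the hypoxia-induced carbonic anhydrase, had 9.94, 11.8 and 23.7 CPM in lenvatinib tumors and 2.07, 9.89 and 1.23 CPM in vehicle tumors. Its lowest lenvatinib tumor and highest vehicle tumor were almost level, and its log2 fold change was 1.77 ± 0.88 (adjusted p = 0.383). BNIP3, a mitophagy receptor, had 39.0, 35.3 and 42.2 CPM in lenvatinib tumors and 23.7, 31.1 and 21.5 CPM in vehicle tumors (log2 fold change 0.61 ± 0.13, adjusted p = 0.0556). ANKRD37 and EPO, the gene of erythropoietin, are named here after their values were seen. Their log2 fold changes were 1.66 ± 0.41 (adjusted p = 0.077) and 1.63 ± 0.45 (adjusted p = 0.102).

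Scored per tumor as the median over the list of log2 CPM relative to the vehicle mean, the hypoxia genes stood at 0.28, 0.42 and 0.79 in lenvatinib tumors and at −0.16, 0.21 and −0.11 in vehicle tumors. Vehicle tumor 2 lay nearest to the lenvatinib tumors, and lenvatinib tumor 3 was the highest. The list median was 0.65 without vehicle tumor 2 and 0.33 without lenvatinib tumor 3, and the number of members that rose was 13 and 4. It was 2 without lenvatinib tumor 2, and 0 without vehicle tumor 1, vehicle tumor 3 or lenvatinib tumor 1. It was 2 with library totals, 12 with DESeq2 and 11 without the filter on low counts.

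**Figure D2:**
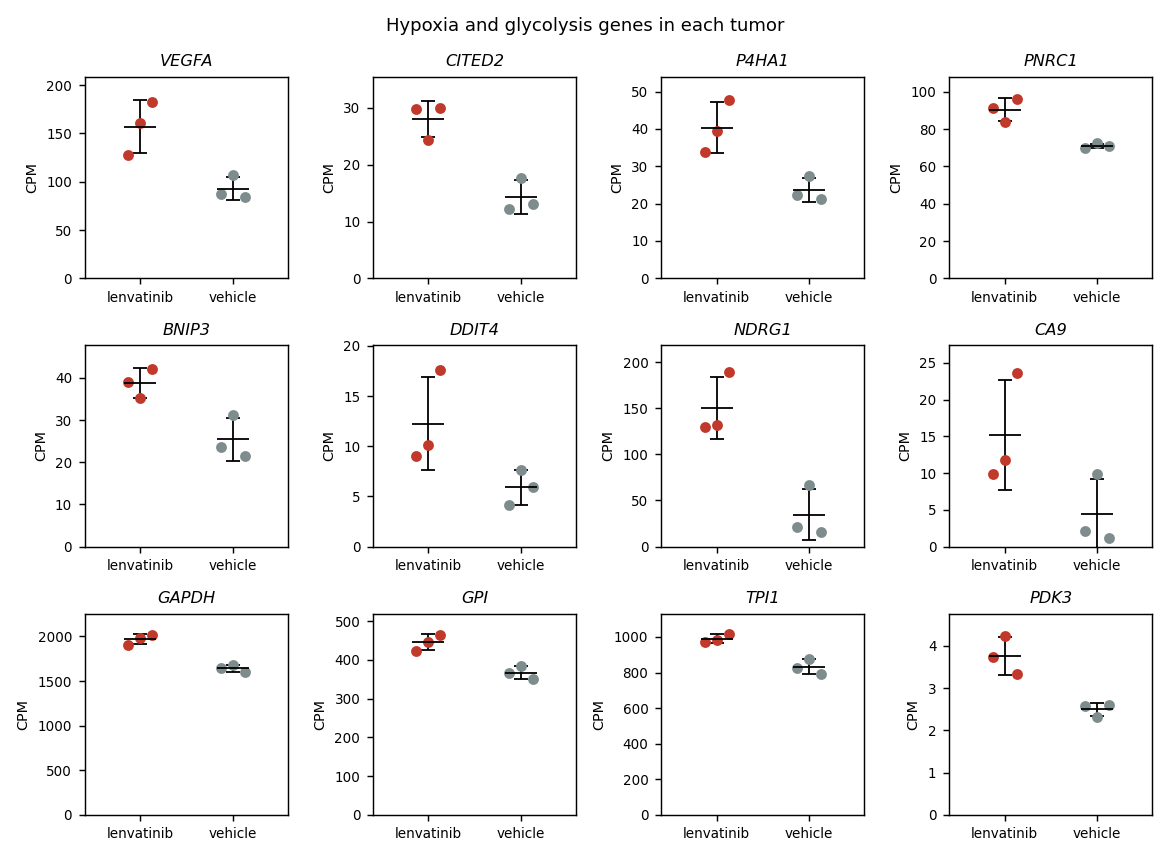
Expression (CPM, linear axis from 0) of 8 hypoxia list genes and 4 glycolysis list genes in each tumor, lenvatinib red and vehicle gray; each dot is 1 tumor, replicates 1 to 3 from left to right, and the bars are the mean and SD of 3 tumors, cut at 0. In VEGFA, CITED2, P4HA1 and PNRC1, which rose, and in the other panels, which did not pass the test, all 3 lenvatinib dots lie above all 3 vehicle dots, and vehicle replicate 2 is the highest vehicle tumor in NDRG1 and CA9.

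Among 33 tested genes of glucose uptake and glycolysis, none rose or fell. The median log2 fold change was 0.26, and 17 were higher and 0 lower at an unadjusted p under 0.05. DESeq2 called 10 of them higher and voom 1. GAPDH, the glycolytic dehydrogenase, had 1907, 1985 and 2021 CPM in lenvatinib tumors and 1647, 1680 and 1598 CPM in vehicle tumors. The groups did not overlap, and the log2 fold change was 0.26 ± 0.06 (adjusted p = 0.0527). The isomerase GPI had 0.28 ± 0.06 (adjusted p = 0.0557), TPI1 0.25 ± 0.06 (adjusted p = 0.0663) and PDK3, a kinase that inhibits pyruvate dehydrogenase, 0.59 ± 0.16 (adjusted p = 0.0875). HK2, the hexokinase of many tumors, overlapped between groups at 140, 221 and 254 CPM in lenvatinib tumors and 212, 228 and 249 CPM in vehicle tumors (log2 fold change −0.17 ± 0.21, adjusted p = 0.735).

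Of 12 tested components of the HIF pathway itself, CITED2 rose and none fell. HIF1A, the oxygen-regulated subunit, had 106, 118 and 117 CPM in lenvatinib tumors and 137, 121 and 152 CPM in vehicle tumors (−0.27 ± 0.08, adjusted p = 0.133). EPAS1, which encodes HIF-2alpha, had 205, 265 and 203 CPM in lenvatinib tumors and 231, 223 and 248 CPM in vehicle tumors (−0.06 ± 0.10, adjusted p = 0.788). HIF proteins are controlled mainly by their stability, which RNA levels do not show.

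Of the 10 receptors listed as lenvatinib targets, 6 had enough counts to be tested. FGFR1 fell and none rose. FGFR1 had 25.7, 37.8 and 43.1 CPM in lenvatinib tumors and 67.9, 65.9 and 72.3 CPM in vehicle tumors. The lowest vehicle tumor exceeded the highest lenvatinib tumor, and FGFR1 fell by 0.96 ± 0.17 on the log2 scale (adjusted p = 0.0446, range over alternatives 2.98e-08 to 0.255). The call was lost without the filter on low counts (adjusted p = 0.119). FGFR4, the FGF19 receptor, had 146, 156 and 143 CPM in lenvatinib tumors and 158, 137 and 154 CPM in vehicle tumors (−0.02 ± 0.07, adjusted p = 0.924). FGFR2, FGFR3 and PDGFRA had log2 fold changes of −0.34 ± 0.17 (adjusted p = 0.356), 0.12 ± 0.06 (0.348) and −0.23 ± 0.09 (0.206), and FLT4, a VEGF receptor, 0.21 ± 0.34 (0.789). The VEGF receptors FLT1 and KDR, with KIT and RET, were close to absent from the human counts. Summed over 3 tumors, FLT1 had 13 counts with lenvatinib and 12 with vehicle, KDR 0 with lenvatinib and 1 with vehicle, KIT 17 with lenvatinib and 12 with vehicle, and RET 3 with lenvatinib and 2 with vehicle. A floor of 3 counts corresponds to 0.077 to 0.096 CPM in lenvatinib libraries and 0.076 to 0.084 CPM in vehicle libraries.

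Among 8 tested ligands of the VEGF and PDGF families, VEGFA rose and none fell. PDGFA had 13, 18.6 and 16.2 CPM in lenvatinib tumors and 23.1, 22.0 and 20.9 CPM in vehicle tumors, without overlap (log2 fold change −0.47 ± 0.12, adjusted p = 0.0723). VEGFB had 0.17 ± 0.07 (adjusted p = 0.255) and PGF −0.03 ± 0.16 (adjusted p = 0.938). None of 16 other angiogenic factors rose or fell, with 5 higher and 4 lower at an unadjusted p under 0.05, and DESeq2 called 3 higher and 2 lower and voom 0. Of these, EFNA1, an ephrin ligand, had 67.4, 56.3 and 80.2 CPM in lenvatinib tumors and 26.5, 44.9 and 29.1 CPM in vehicle tumors (1.02 ± 0.22, adjusted p = 0.0816). SEMA3A, a secreted semaphorin, had −0.68 ± 0.15 (adjusted p = 0.0559).

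No gene of the FGF receptor and MAP kinase output list rose or fell, out of 22 tested. At an unadjusted p under 0.05, 8 were lower and 0 higher, and DESeq2 called 2 lower and voom 0. The median log2 fold change was −0.30, and 20 of 22 members were negative. DUSP6, the ERK phosphatase that ERK itself induces, had 62.0, 97.9 and 92.9 CPM in lenvatinib tumors and 77.7, 92.9 and 71.1 CPM in vehicle tumors. The groups overlapped, with lenvatinib tumor 1 the lowest of all 6 tumors (log2 fold change 0.06 ± 0.18, adjusted p = 0.90).

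Lenvatinib tumor 1 was also the lowest for other members. SPRY4, a feedback inhibitor of receptor signalling, had 1.18, 3.95 and 3.54 CPM in lenvatinib tumors and 4.97, 5.02 and 5.04 CPM in vehicle tumors (−0.81 ± 0.36, adjusted p = 0.284). EGR1, an immediate early transcription factor, had 49.0, 122 and 95.1 CPM in lenvatinib tumors and 91.8, 103 and 83.7 CPM in vehicle tumors (−0.07 ± 0.34, adjusted p = 0.943). ETV4, an ETS factor downstream of FGF signalling, had 10.0, 14.6 and 13.3 CPM in lenvatinib tumors and 18, 16.7 and 18.4 CPM in vehicle tumors (−0.49 ± 0.13, adjusted p = 0.077). The log2 fold changes of ETV5, MYC and CCND1 were −0.19 ± 0.17, −0.06 ± 0.12 and −0.33 ± 0.20, with adjusted p of 0.604, 0.831 and 0.433. The per-tumor list medians were −0.72, −0.05 and −0.19 in lenvatinib tumors and 0.02, −0.06 and 0.04 in vehicle tumors, so lenvatinib tumor 1 stood apart from its group. Without lenvatinib tumor 1 the list median was −0.15, and without lenvatinib tumor 2 it was −0.49. Of 22 tested immediate early genes, none rose or fell, with 4 higher and 1 lower at an unadjusted p under 0.05, 1 higher with DESeq2 and 0 with voom.

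In the list of FGF19 and its receptor complex (10 tested), KLB rose and none fell. KLB, the co-receptor that lets FGF19 bind FGFR4, had 62.0, 55.7 and 56.9 CPM in lenvatinib tumors and 44.5, 44.3 and 48.2 CPM in vehicle tumors. Every lenvatinib tumor exceeded every vehicle tumor, and KLB rose by 0.35 ± 0.07 on the log2 scale (adjusted p = 0.0477, range over alternatives 0.00238 to 0.575). With library totals the adjusted p was 0.0561. FGF19 had 2.55, 3.30 and 2.49 CPM in lenvatinib tumors and 3.66, 3.41 and 3.39 CPM in vehicle tumors (−0.34 ± 0.16, adjusted p = 0.308).

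No gene rose or fell among 14 of bile acid synthesis (median log2 fold change 0.18) or 16 of bile acid transport and the nuclear receptor FXR (median 0.17), with 5 and 7 higher and 1 and 1 lower at an unadjusted p under 0.05. DESeq2 called 1 gene higher in the synthesis list and 1 lower in the transport list, and voom 0 in both. CYP7A1, which makes the first and limiting step from cholesterol to bile acids, was too low to test, with 9 counts over the 3 lenvatinib tumors and 10 over the 3 vehicle tumors. CYP8B1, which directs synthesis to cholic acid, had 0.493, 0.674 and 0.744 CPM in lenvatinib tumors and 0.279, 0.408 and 0.026 CPM in vehicle tumors. The groups did not overlap, but vehicle tumor 3 was under its floor of 3 counts (1.40 ± 0.55, adjusted p = 0.22).

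Of 35 tested genes of hepatocyte products, 7 rose with lenvatinib (TF, ITIH1, APOC3, ITIH3, ARG1, APOE and HNF4A) and none fell. All 35 log2 fold changes were positive, with a median of 0.36, and 25 were higher at an unadjusted p under 0.05. TF, the plasma iron carrier transferrin, had 12384, 12758 and 11720 CPM in lenvatinib tumors and 8083, 8478 and 6668 CPM in vehicle tumors. The groups were well separated, and TF rose by 0.66 ± 0.09 on the log2 scale (adjusted p = 0.0263). ITIH1, a chain of the inter-alpha-trypsin inhibitors that bind hyaluronan, had 160, 137 and 122 CPM in lenvatinib tumors and 86.4, 75.8 and 58.4 CPM in vehicle tumors. It rose by 0.93 ± 0.15 (adjusted p = 0.041).

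APOC3, an apolipoprotein of triglyceride-rich particles, rose by 0.79 ± 0.13 (adjusted p = 0.0398), and APOE by 0.47 ± 0.09 (adjusted p = 0.0423). ARG1, the arginase of the urea cycle, had 64.2, 57.7 and 61.0 CPM in lenvatinib tumors and 40.7, 47.2 and 39.1 CPM in vehicle tumors. It rose by 0.52 ± 0.08 (adjusted p = 0.0288). HNF4A, a master transcription factor of hepatocytes, had 382, 407 and 357 CPM in lenvatinib tumors and 319, 281 and 300 CPM in vehicle tumors, a rise of 0.35 ± 0.07 (adjusted p = 0.046). The 2 most used markers did not pass. ALB had 41953, 45552 and 34325 CPM in lenvatinib tumors and 36559, 35523 and 34105 CPM in vehicle tumors, so lenvatinib tumor 3 lay within the vehicle range (0.19 ± 0.10, adjusted p = 0.322). The fetal marker AFP had 12819, 13466 and 8320 CPM in lenvatinib tumors and 10332, 9607 and 9272 CPM in vehicle tumors (0.24 ± 0.17, adjusted p = 0.499). Lenvatinib tumor 3 was the lowest of the 6 for AFP. Per tumor, the median of the hepatocyte list was 0.42, 0.43 and 0.20 in lenvatinib tumors and 0.06, 0.03 and −0.09 in vehicle tumors. The number of members that rose was 0 without vehicle tumor 1, vehicle tumor 3 or lenvatinib tumor 1. None of 13 acute phase genes rose or fell, with 5 higher and 1 lower at an unadjusted p under 0.05, 4 higher and 1 lower with DESeq2 and 1 higher with voom. CFB, complement factor B, had 586, 569 and 617 CPM in lenvatinib tumors and 492, 443 and 376 CPM in vehicle tumors (0.43 ± 0.09, adjusted p = 0.0501).

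Of 23 tested genes of fatty acid oxidation and ketone bodies, PPARA and ECI2 rose and none fell. All 23 had positive log2 fold changes, with a median of 0.24, and 15 were higher at an unadjusted p under 0.05. PPARA, the nuclear receptor that drives fatty acid oxidation in liver, had 74.9, 70.0 and 59.3 CPM in lenvatinib tumors and 47.8, 49.9 and 39.1 CPM in vehicle tumors. No tumor lay within the range of the other group, and PPARA rose by 0.57 ± 0.11 (adjusted p = 0.0423). ECI2, an enoyl-CoA isomerase, rose by 0.44 ± 0.09 (adjusted p = 0.0423). BDH1, which makes the ketone body hydroxybutyrate, had 28.1, 22.7 and 26.3 CPM in lenvatinib tumors and 15.5, 18.9 and 12.1 CPM in vehicle tumors (0.73 ± 0.15, adjusted p = 0.0511). The 2 calls in this list became 7 with DESeq2, 5 without vehicle tumor 2, and 0 without vehicle tumor 1, vehicle tumor 3, lenvatinib tumor 1 or lenvatinib tumor 2. Of 16 tested genes of fatty acid synthesis, 1 fell and none rose, with 5 higher and 1 lower at an unadjusted p under 0.05. DESeq2 called 5 higher and 1 lower, library totals 2 higher and 1 lower, and voom 0. The gene that fell was ME1, malic enzyme, which supplies NADPH, at 10.5, 10.7 and 10.4 CPM in lenvatinib tumors and 18.8, 13.2 and 20.1 CPM in vehicle tumors (−0.73 ± 0.14, adjusted p = 0.0426). Its call was kept without vehicle tumor 2 and lost when any other tumor was left out. The median of the synthesis list was 0.16. None of 25 cholesterol genes rose or fell (median 0.10), with 4 higher and 0 lower at an unadjusted p under 0.05 and 0 called with DESeq2 or voom.

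**Figure D3:**
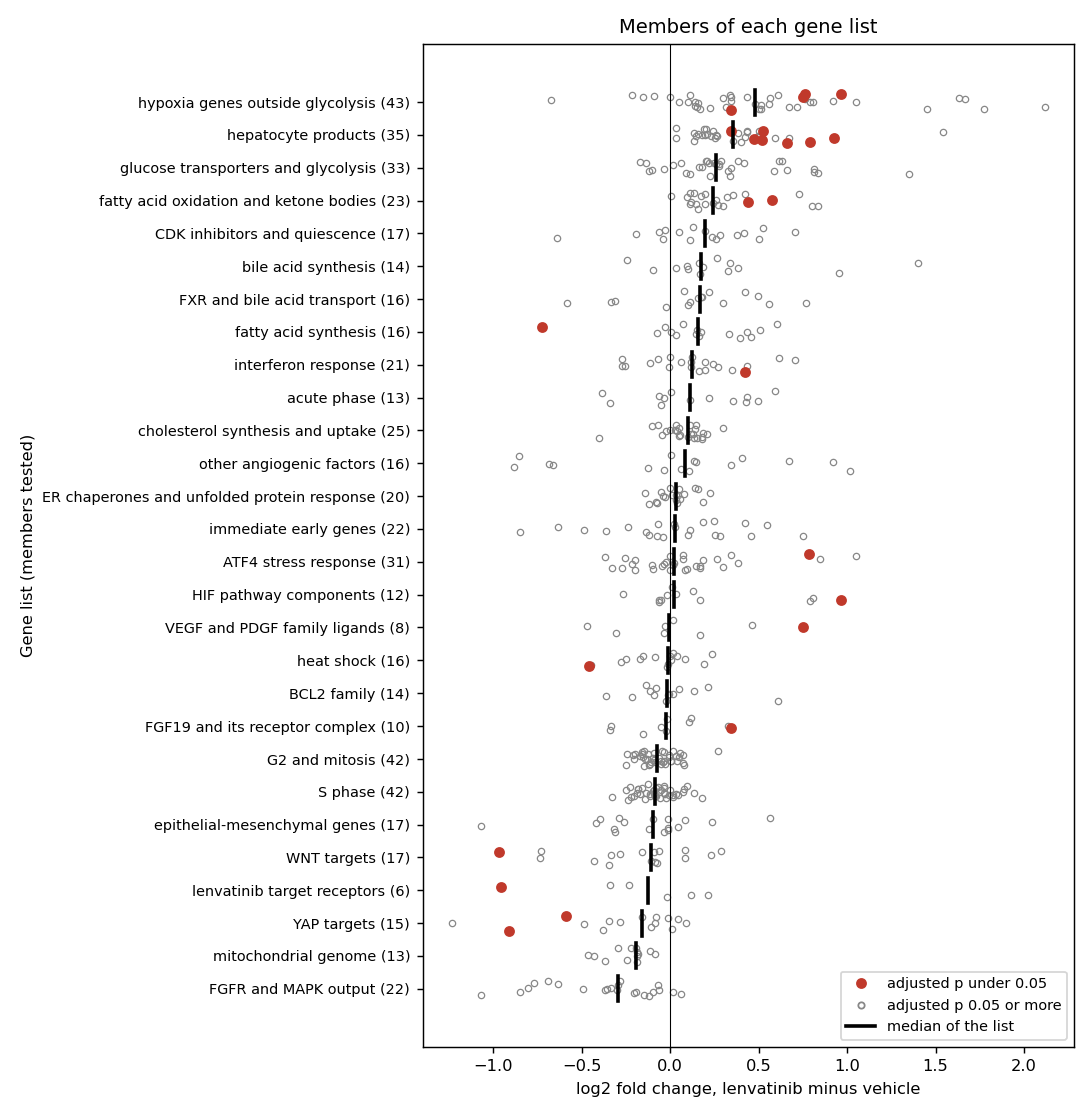
Log2 fold change, lenvatinib minus vehicle, of every tested member of the gene lists (1 row per list, number tested in parentheses, rows ordered by median). The host marker lists and the lists added after values were seen (ribosome, respiratory chain and proteasome) are not shown. Filled red circles passed an adjusted p of 0.05, open circles did not, and the black bar is the list median. Hypoxia genes (median 0.48) and hepatocyte products (0.36) lie farthest to the right and FGF receptor and MAP kinase output (−0.30) farthest to the left, and few members of any list passed.

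WNT and YAP targets held 3 of the genes that fell. LGR5, a receptor for R-spondins and a target of WNT signalling in liver and intestine, had 27.9, 28.5 and 38.5 CPM in lenvatinib tumors and 59.5, 56.2 and 69.3 CPM in vehicle tumors. The groups were well apart, and LGR5 fell by 0.97 ± 0.13 (adjusted p = 0.0263). It was the only 1 of 17 tested WNT targets to pass, and none rose. The median of the list was −0.11, with 5 lower and 1 higher at an unadjusted p under 0.05. DESeq2 called 1 WNT target higher and 2 lower, as did the fit without the filter on low counts, and voom called 1 lower. CTGF, a matricellular protein induced by YAP, had 6.22, 9.69 and 10.5 CPM in lenvatinib tumors and 16.4, 14.7 and 18.3 CPM in vehicle tumors. It fell by 0.91 ± 0.18 (adjusted p = 0.0477). AMOTL2, an angiomotin that binds YAP, fell by 0.59 ± 0.12 (adjusted p = 0.0471). These were 2 of 15 YAP targets, none rose, and 7 were lower at an unadjusted p under 0.05. ANKRD1, another YAP target, had 9.92, 13.8 and 9.16 CPM in lenvatinib tumors and 26.9, 17.3 and 32.4 CPM in vehicle tumors (−1.23 ± 0.25, adjusted p = 0.0657). None of 17 epithelial-mesenchymal genes passed, with 2 higher and 6 lower at an unadjusted p under 0.05, 5 lower with DESeq2 and 1 lower with voom. Among them were TGFB2 (−1.07 ± 0.23, adjusted p = 0.0526) and VIM (−0.42 ± 0.10, adjusted p = 0.0672).

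Cell cycle genes did not pass in either direction. None of 42 S phase genes rose or fell (median log2 fold change −0.08, 4 lower and 0 higher at an unadjusted p under 0.05), and none of 42 genes of G2 and mitosis did (median −0.07, 2 lower and 1 higher). DESeq2 and voom called 0 genes in both lists. Without lenvatinib tumor 1, 10 genes of G2 and mitosis were lower and 0 higher at that threshold (median −0.16), and without lenvatinib tumor 3, 0 were lower and 2 higher (median −0.02). With library totals, 9 members were lower at an unadjusted p under 0.05, as were 10 of the S phase list, and no fit called any. MKI67, the proliferation antigen, had 591, 510 and 503 CPM in lenvatinib tumors and 506, 587 and 557 CPM in vehicle tumors (−0.05 ± 0.08, adjusted p = 0.811). No CDK inhibitor or quiescence gene passed out of 17, and no BCL2 family gene out of 14. At an unadjusted p under 0.05, 5 of the 17 were higher and 1 lower, and 1 of the 14 was higher and 1 lower. DESeq2 called 2 of the 17 higher and 1 of the 14 in each direction, and voom 0.

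Single genes passed in 3 stress and interferon lists. NUPR1, a stress-induced chromatin protein in the ATF4 list, had 13.4, 11.2 and 13.8 CPM in lenvatinib tumors and 6.17, 9.10 and 6.96 CPM in vehicle tumors. It rose by 0.78 ± 0.15 (adjusted p = 0.041) and was the only 1 of 31 members to pass. HSPA8, the constitutive HSP70 chaperone, had 1209, 1101 and 1237 CPM in lenvatinib tumors and 1561, 1516 and 1791 CPM in vehicle tumors. It fell by 0.46 ± 0.08 (adjusted p = 0.0337), alone among 16 heat shock genes. STAT2, a signal transducer of type I interferon, rose by 0.43 ± 0.08 (adjusted p = 0.041), alone among 21 interferon response genes. None of 20 genes of ER chaperones and the unfolded protein response passed, with 1 higher and 0 lower at an unadjusted p under 0.05. None of 13 genes of the mitochondrial genome passed, with 0 higher and 1 lower at that threshold, and DESeq2 and voom called 0 in both lists. All 13 had negative log2 fold changes (median −0.19). Per tumor, their median log2 CPM relative to the vehicle mean was −0.32, 0.04 and −0.42 in lenvatinib tumors and −0.003, −0.01 and −0.0003 in vehicle tumors, so lenvatinib tumor 2 was not below the vehicle tumors. Without it, 11 of 13 were lower at an unadjusted p under 0.05, 1 was called and the median was −0.35. Their share of all counts was 0.014% to 0.018% in lenvatinib tumors and 0.018% in vehicle tumors.

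The largest rises outside these lists included genes of liver metabolism and of membrane receptors. AC020907.2 had the largest log2 fold change of the genes the naming rule took (1.56 ± 0.28, adjusted p = 0.0401), at 2.63, 2.69 and 4.31 CPM in lenvatinib tumors and 0.866, 0.866 and 1.52 CPM in vehicle tumors. CHRNA4 and CHRNA2, subunits of nicotinic acetylcholine receptors, rose by 1.52 ± 0.21 (adjusted p = 0.0263) and 0.80 ± 0.14 (adjusted p = 0.0378). CYP4F3, a cytochrome P450 that hydroxylates leukotriene B4 and fatty acids, had 19.3, 14.7 and 13.1 CPM in lenvatinib tumors and 6.76, 7.11 and 3.91 CPM in vehicle tumors. The groups were well apart, and CYP4F3 rose by 1.40 ± 0.23 (adjusted p = 0.041). DEPTOR, an inhibitor that binds mTOR, had 9.23, 9.56 and 8.10 CPM in lenvatinib tumors and 4.47, 4.94 and 2.36 CPM in vehicle tumors, a rise of 1.19 ± 0.23 (adjusted p = 0.0471). UNC93A rose by 1.12 ± 0.17, HSD17B6, a steroid dehydrogenase, by 0.97 ± 0.18 and EPB41L1, a protein of the membrane skeleton, by 0.87 ± 0.13. SEMA6C, a semaphorin, rose by 0.87 ± 0.14 and C9orf172 by 0.86 ± 0.15. TFR2, the transferrin receptor by which hepatocytes sense iron, rose by 0.85 ± 0.15, and SLC38A4, an amino acid transporter of liver, by 0.83 ± 0.09. The adjusted p of these 7 genes lay between 0.0263 and 0.041.

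The largest falls were of varied function. TIMM10B, a chaperone of mitochondrial protein import, had 1.18, 1.44 and 0.974 CPM in lenvatinib tumors and 8.68, 3.72 and 4.20 CPM in vehicle tumors. Vehicle tumor 1 was far above the other two vehicle tumors (−2.21 ± 0.35, adjusted p = 0.037). HLF, a PAR bZIP transcription factor, had 2.68, 2.92 and 3.05 CPM in lenvatinib tumors and 5.72, 5.55 and 6.20 CPM in vehicle tumors, with little spread in either group (−1.02 ± 0.13, adjusted p = 0.0263). The snoRNA host gene SNHG4 fell by 1.12 ± 0.22 (adjusted p = 0.0423) and the keratin KRT23 by 1.01 ± 0.14 (adjusted p = 0.0263). KCNJ5, a potassium channel, fell by 0.99 ± 0.17, and CSGALNACT1, which starts chondroitin sulfate chains, by 0.96 ± 0.17. The fatty acid transporter SLC27A1 fell by 0.90 ± 0.16 and TESC, a calcium-binding protein, by 0.87 ± 0.15. MTCL1, a microtubule crosslinker, fell by 0.85 ± 0.12 and MGAT5, which branches N-glycans, by 0.84 ± 0.12. AGR2, a protein disulfide isomerase of secretory cells, fell by 0.84 ± 0.14 and RASGRF2, a Ras exchange factor, by 0.83 ± 0.12. The adjusted p of these 8 genes lay between 0.0263 and 0.041.

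Among all host marker lists, LYZ, a lysozyme of macrophages, was the only gene to pass. It had 67.4, 79.9 and 81.4 CPM in lenvatinib tumors and 114, 96.9 and 111 CPM in vehicle tumors (−0.50 ± 0.09, adjusted p = 0.0379). The macrophage markers C1QA and C1QC had no count, and 10 of the 14 macrophage markers were under 1 CPM. Their summed level, mostly CD68 and LYZ, was 183 to 191 CPM in lenvatinib tumors and 201 to 219 CPM in vehicle tumors. Fibroblast markers summed to 332 to 380 CPM in lenvatinib tumors and 336 to 436 CPM in vehicle tumors, with 8 of 12 under 1 CPM and DCN at 0. Pericyte and smooth muscle markers summed to 73.0 to 84.1 CPM in lenvatinib tumors and 73.5 to 84.0 CPM in vehicle tumors, with 4 of 10 under 1 CPM. Markers of endothelial tip cells summed to 26.6 to 37.1 CPM in lenvatinib tumors and 28.7 to 29.5 CPM in vehicle tumors, with 4 of 8 under 1 CPM and ESM1 at 0. Neutrophil and lymphoid markers, 10 of 12 under 1 CPM, summed to 31.9 to 40.2 CPM in lenvatinib tumors and 29.1 to 33.9 CPM in vehicle tumors. Markers of muscle, fat, skin and red cells, 11 of 15 under 1 CPM, summed to 25.1 to 27.5 CPM in lenvatinib tumors and 22.3 to 26.4 CPM in vehicle tumors. Much of each of these sums came from single genes. Over the 6 tumors, FBLN1 averaged 305 CPM in the fibroblast list and PDGFRB 44.4 CPM in the pericyte list. NID2 averaged 15.9 CPM among tip cell markers, CSF3R 31.2 CPM among neutrophil and lymphoid markers and KRT10 15.8 CPM in the last list. The sums therefore do not measure amounts of host cells. Whether host RNA has a part in the changes of conserved genes was not tested.

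The other 6 tumors show lenvatinib on top of H3B-6527, with no tumor shared. In that comparison 1 of 15256 genes passed (0.00655%). This was LGI4, which had 7.31, 6.22 and 5.31 CPM with the combination and 1.11, 1.03 and 1.01 CPM with H3B-6527 alone (log2 fold change 2.59, adjusted p = 0.0174). DESeq2 called 45 genes, voom 0, and leaving out 1 tumor gave 0 to 5. The call was absent without H3B-6527 tumor 2 or any 1 combination tumor. Without adjustment, 563 genes were higher (3.69%) and 280 lower (1.84%) at p under 0.05. The biological coefficient of variation within a group was 21.1% for H3B-6527 tumors, 10.9% for combination tumors, 10.7% for lenvatinib tumors and 8.13% for vehicle tumors.

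Most genes changed by lenvatinib alone had the same sign there. The genes were chosen on their values for lenvatinib alone, so that set of values is a description. Of the 101 that rose, 84 were positive with lenvatinib added to H3B-6527, with a median log2 fold change of 0.20, against 0.52 for lenvatinib alone. Of the 88 that fell, 64 were negative, with medians of −0.10 and −0.50. In all, 148 of 189 (78.3%) had the same sign, against 60.3% of the 14836 genes tested in both. Of the 148, 21 had an unadjusted p under 0.05 there. VEGFA had 129 CPM on average with the combination and 77.3 CPM with H3B-6527, a log2 fold change of 0.75 ± 0.12 (unadjusted p = 2.6e-04 in the edgeR fit), against 0.75 with lenvatinib alone. CITED2 had 0.53 ± 0.11, P4HA1 0.20 ± 0.27 and PNRC1 0.29 ± 0.11. Of 41 hypoxia list genes tested there, 37 were positive, with a median of 0.26, and 19 were higher and 1 lower at an unadjusted p under 0.05. CA9 had 6.29, 4.42 and 4.6 CPM with the combination and 0.386, 0.271 and 1.55 CPM with H3B-6527 alone (2.92 ± 0.56). The glycolysis list had a median of 0.27 over 32 genes, and hepatocyte products had 0.18 over 35. S phase genes had −0.20 (3 of 42 positive) and genes of G2 and mitosis −0.23 (3 of 42 positive). At an unadjusted p under 0.05, 1 and 0 of these were lower and none was higher. Cholesterol genes had 0.21 (25 of 25 positive), with 9 higher and 0 lower at that threshold.

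**Figure D4:**
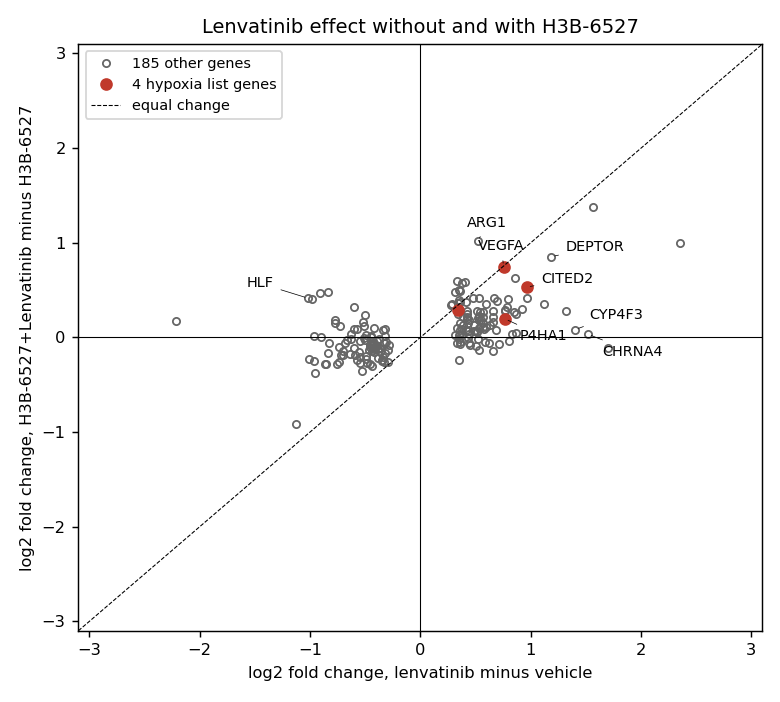
The 189 genes that passed for lenvatinib against vehicle, with that log2 fold change on the x axis and the log2 fold change of H3B-6527+Lenvatinib minus H3B-6527 on the y axis; the dashed line marks equal changes and the 4 hypoxia list genes are red. Most points to the right lie above 0 but below the dashed line, VEGFA lies on it, and the genes that fell scatter around small negative values.

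The lists of the mitochondrial genome and of FGF receptor and MAP kinase output were among those with medians of opposite sign in the pair of comparisons. All 13 mitochondrial genes, negative for lenvatinib alone (median −0.19), were positive with lenvatinib added to H3B-6527 (median 0.38). At an unadjusted p under 0.05, 3 were higher and 0 lower there. Of the MAP kinase list, 17 of 21 members were positive there, with a median log2 fold change of 0.54. At an unadjusted p under 0.05, 8 of them were higher and 0 lower. Per tumor, the list medians relative to the vehicle mean were −2.13, −2.09 and −1.81 with the combination. They were −3.06, −2.68 and −2.17 with H3B-6527 alone, so both groups lay far below vehicle and H3B-6527 tumor 3 was close to the combination. For lenvatinib alone, the list median was −0.15 without lenvatinib tumor 1. MYC had 11.7, 14.3 and 15.3 CPM with the combination and 5.27, 7.13 and 8.38 CPM with H3B-6527 alone (1.01 ± 0.19, adjusted p = 0.49). DUSP6 had 6.04, 9.71 and 15.8 CPM with the combination and 2.70, 5.07 and 7.62 CPM with H3B-6527 alone (1.07 ± 0.43, adjusted p = 0.87).

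The difference between the lenvatinib effects with and without H3B-6527 was tested in 1 fit of all 12 tumors. No gene passed out of 15836 (0%, smallest adjusted p 0.61). At an unadjusted p under 0.05 there were 854 (5.39%), DESeq2 called 18 and voom 0. Of the 189 genes called for lenvatinib alone, 72 were among the 854. They were chosen on values that enter this difference, so that count is a description. For MYC the difference was 1.06 ± 0.23 on the log2 scale (adjusted p = 0.69). In the MAP kinase list, 11 of the 22 genes had an unadjusted p under 0.05. So did 9 of the 13 genes of the mitochondrial genome and 6 of the 43 hypoxia genes.

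H3B-6527 against vehicle and lenvatinib against vehicle share the vehicle tumors, so only levels are set side by side. TF averaged 12287 ± 526 CPM with lenvatinib, 28706 ± 3476 CPM with the combination, 25037 ± 7888 CPM with H3B-6527 and 7743 ± 952 CPM with vehicle (SD, n = 3 each). KLB averaged 58.2 CPM with lenvatinib, 199 CPM with the combination, 236 CPM with H3B-6527 and 45.6 CPM with vehicle. FGFR1 averaged 35.5 CPM with lenvatinib, 4.34 CPM with the combination, 5.77 CPM with H3B-6527 and 68.7 CPM with vehicle. LGR5 averaged 31.6 CPM with lenvatinib, 8.16 CPM with the combination, 9.81 CPM with H3B-6527 and 61.7 CPM with vehicle. VEGFA averaged 157 CPM with lenvatinib, 129 CPM with the combination, 77.3 CPM with H3B-6527 and 92.8 CPM with vehicle. DUSP6 averaged 84.2 ± 19.5 CPM with lenvatinib, 10.5 CPM with the combination, 5.13 CPM with H3B-6527 and 80.6 ± 11.2 CPM with vehicle.

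**Figure D5:**
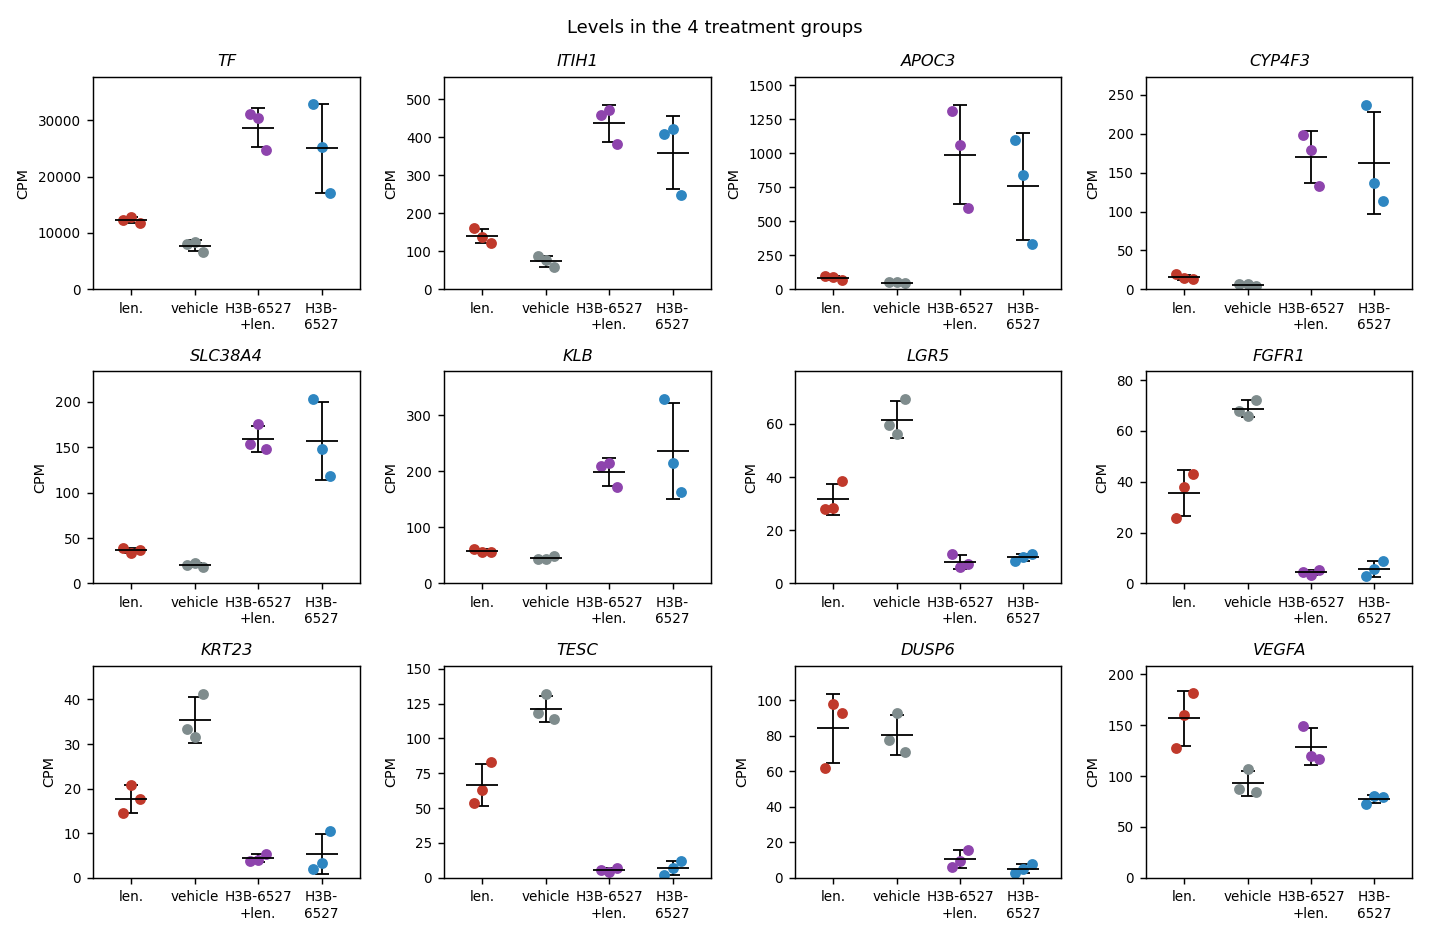
Expression (CPM, linear axis from 0) of 12 genes in all 12 tumors, by group from left to right lenvatinib (len.), vehicle, H3B-6527+Lenvatinib (H3B-6527 +len.) and H3B-6527; dots are tumors and bars the mean and SD of 3. All 3 lenvatinib dots lie above the vehicle dots in the 6 panels from TF to KLB and in VEGFA and below them in the 4 panels from LGR5 to TESC, while DUSP6 overlaps.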

How the data were processed

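RNA was extracted from pieces of 12 tumors, and each library was run on 4 lanes, per the labels. Values deposited by the authors are expected counts, estimates of reads per gene symbol from kallisto with no scaling, and 40.3% of its values are not whole. STAR, kallisto, GRCh37 (human) and GRCm38 (mouse) are named in the submitters' processing notes. Tool versions, what each build was used for, any removal of mouse reads and the annotation are not given in the sources used here. It lists 36292 human symbols, of which 10985 had no count in the 6 tumors. Strand use in counting is not given either, so overlapping and antisense genes are uncertain. Unnamed in the text are genes with near-identical copies and read-through names. No human annotation was used, so coordinates, lengths and sequences are not reported, and a planned promoter search was not run. VEGFD and ERO1A were looked up under these symbols in place of FIGF and ERO1L.

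After rounding of the counts, filterByExpr selected genes in each pair of groups. These were tested with edgeR 4.0.16 in R 4.3.3 (TMM factors, robust quasi-likelihood F-test, 2-sided), with Benjamini-Hochberg adjustment of p-values across the whole table and a threshold of 0.05. The lenvatinib and vehicle tumors were fitted alone, as were the combination and H3B-6527 tumors, and the difference of both effects used all 12. Fold changes are log2 values with SE, and CPM uses TMM factors of all 12 libraries. The SE is the absolute log2 fold change divided by the square root of the F statistic of its test. The design had been set for counts per gene, and the unit found, expected counts, takes the same test after rounding. The fit was run on counts simulated from its own dispersions, with added changes larger than most of those called here. That run checks the code and does not bear on the calls. An exact permutation test of 3 against 3 tumors cannot go below 0.1, so single genes rest on the fit across all genes. Each tumor is a separate mouse, per the labels, and replicate numbers follow only the order of the samples.

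Named genes are the 15 largest rises and 15 largest falls with adjusted p under 0.05, mean log2 CPM of 1 or more and groups that do not overlap, and 20 fixed genes. Also named are the 4 or fewer members with the smallest p from each of 35 lists and of 5 lists added after values were seen. Members and lists were chosen with earlier results of these data known. Lists are described by counts and medians. Alternatives were library totals, DESeq2 1.42.0, limma-voom (limma 3.58.1), no filter, a mean CPM of 1 or more, no robust estimation, unrounded counts, all 12 tumors in 1 fit, and leaving out each tumor. Counting floors of 3 counts cover counting error only, and the libraries carry no molecular identifiers.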

Additional observations from a re-analysis of the deposited data

How the results depend on the processing

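For lenvatinib against vehicle, 101 genes rose and 88 fell. The counts were 122 and 259 with library totals, 480 and 390 with DESeq2, 525 and 482 with no filter on low counts (25206 genes tested), and 0 and 0 in 1 fit of all 12 tumors, where 1698 genes had an unadjusted p under 0.05 and the biological coefficient of variation was 13.8%, against 9.52% in the fit of 6. With voom (118 and 105), a mean CPM of 1 or more (121 and 122), no robust estimation (87 and 76) and unrounded counts (101 and 88) they stayed within 1.5 times. Leaving out 1 tumor gave 0 to 253 higher and 0 to 166 lower genes. Of the 189 genes, 180 were called with library totals, 186 with DESeq2, 186 with voom and 183 without the filter. The cause was not tested.

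With lenvatinib added to H3B-6527, 1 gene was called: 45 with DESeq2, 0 with voom, 12 without the filter, 2 in the fit of 12, and 0 to 5 with 1 tumor left out. For the difference of both effects, 0 genes were called (854 at an unadjusted p under 0.05), and 18 with DESeq2. Over 194 results for single genes in lenvatinib against vehicle and their alternatives, 2265 kept their direction and their side of the threshold, 270 lost the call, 138 gained it and 21 changed sign. The 21, all with 1 tumor left out, came from 14 genes called in no fit: CLDN5 (−0.83 to 0.069), CSF3R (−0.0014 to 0.20), DUSP6 (−0.064 to 0.24), EGR1 (−0.37 to 0.22), ENG (−0.46 to 0.013), EPAS1 (−0.20 to 0.00035), FGFR4 (−0.074 to 0.023), HK2 (−0.35 to 0.045), KCNJ8 (−0.056 to 0.49), MKI67 (−0.12 to 0.0058), MYC (−0.19 to 0.075), MYH4 (−0.055 to 0.43), NID2 (−0.17 to 0.0048) and PGF (−0.16 to 0.030). The sign of genes chosen for groups that do not overlap is fixed by that choice when 1 tumor is left out.

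No paired analysis was possible because the labels give no replicate numbers shared between groups. With 3 tumors per group and changes of about 1.43-fold, a gene that missed the threshold is not shown to be unchanged, and genes near the floor of 3 counts, CYP7A1, FLT1 and KDR among them, could not be compared at this depth.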

Other observations

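Gene families of the ribosome had medians of opposite sign. They were taken by symbol or by hand after values were seen, so the counts are a description with no test. Of 82 tested genes of cytosolic ribosomal proteins, 8 rose and none fell (edgeR adjusted p under 0.05), 72 were higher and 1 lower at an unadjusted p under 0.05, and the median log2 fold change was 0.21, against 0.00 over all genes tested. The number that rose was 34 with DESeq2, 32 without the filter on low counts, 0 in 1 fit of all 12 tumors, 0 without vehicle tumor 1, vehicle tumor 3 or lenvatinib tumor 1, and 5 to 11 without any other tumor. RPL37, a protein of the large subunit, had 472, 459 and 480 CPM in lenvatinib tumors and 363, 355 and 344 CPM in vehicle tumors (0.41 ± 0.05, adjusted p = 0.0263). The groups were well apart, with little spread in either. RPL31 rose by 0.36 ± 0.06, RPL18 by 0.35 ± 0.05 and RPS25 by 0.35 ± 0.06, with edgeR adjusted p between 0.0288 and 0.0379. The family took 4.10%, 4.12% and 4.14% of all counts in lenvatinib tumors and 3.73%, 3.57% and 3.69% in vehicle tumors. Many ribosomal protein genes have processed pseudogenes, and how kallisto shared reads among these is not known from the table.

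Of 103 genes of ribosome assembly and RNA polymerase I, 10 fell and none rose, and 70 were lower and 0 higher at an unadjusted p under 0.05, with a median log2 fold change of −0.26. The number that fell was 32 with library totals, 40 with DESeq2, 47 without the filter, 17 at a mean CPM of 1 or more and 0 in the fit of 12. It was 0 without vehicle tumor 1, vehicle tumor 3 or lenvatinib tumor 1, 25 without vehicle tumor 2, 30 without lenvatinib tumor 2 and 10 without lenvatinib tumor 3. MYBBP1A, a nucleolar protein, had 57.6, 64.7 and 59.1 CPM in lenvatinib tumors and 96.9, 80.8 and 86.9 CPM in vehicle tumors. The groups did not overlap (−0.55 ± 0.08, edgeR adjusted p = 0.0263). NOL6, which takes part in small subunit assembly, fell by 0.49 ± 0.07 (adjusted p = 0.0263), the helicase DDX21 by 0.63 ± 0.11 (adjusted p = 0.0393) and POLR1A, the largest subunit of RNA polymerase I, by 0.35 ± 0.06 (adjusted p = 0.035). Per tumor, the family's median log2 CPM relative to the vehicle mean was −0.35, −0.15 and −0.29 in lenvatinib tumors and 0.04, −0.09 and 0.06 in vehicle tumors. With lenvatinib added to H3B-6527, ribosomal proteins had a median of 0.38 and the assembly family −0.06. Of 78 genes of mitochondrial ribosomal proteins, none rose or fell (2 higher and 3 lower at an unadjusted p under 0.05, median −0.02; DESeq2 called 1 lower and voom 0). Of 74 nuclear genes of the respiratory chain and ATP synthase, 2 rose and none fell (median 0.10): UQCRB by 0.36 ± 0.06 and ATP5I by 0.38 ± 0.06 (adjusted p = 0.0342 for both). Neither was called without vehicle tumor 1, vehicle tumor 3 or lenvatinib tumor 1. Of 35 genes of the proteasome none passed, with 4 lower and 0 higher at an unadjusted p under 0.05 (median −0.05) and 0 called with DESeq2 or voom.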
